A study of Mus musculus with 32 samples.

Results

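The 4 genes described here are Runx1, Runx2, Runx3 and Cbfb, chosen by name from the 33397 genes of an RNA-seq table of mouse gastrocnemius (GAS) muscle. Runx1, Runx2 and Runx3 encode the DNA-binding α subunits of the core-binding factors, and Cbfb encodes their common β subunit. All 4 were in the table and among the 22071 genes that passed the filter on low values, for which 4 or more of the 32 samples had to reach 0.1 FPKM.

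GAS muscle, the large calf muscle, is supplied by the sciatic nerve and wastes after that nerve is cut. RNA was measured in GAS muscle of C57BL/6 mice (C57BL/6J in the study's methods) at 0, 1, 3, 5, 7, 14, 21 and 28 d, with 4 samples per time point and 32 in all. The labels list no transgene or deletion, and time is the one item in which the labels of the groups differ. Per the study's methods the mice were young adult males, a short section of the left sciatic nerve was removed, and whole muscle was taken, so that fibres, blood cells, nerve and connective tissue were measured together. The labels give sciatic nerve transection for every sample, the 0 d samples included. The study describes sham mice, which were operated on without cutting the nerve, and uses nondenervated sham muscle as its RNA-seq reference. The labels do not say that the 0 d samples are this sham muscle, and their columns carry the prefix C and no day, so they are called the 0 d group. The labels also describe an extraction of retinas, but the muscle markers Acta1 and Myh4 were at 7821 to 14741 and 1359 to 6504 FPKM in the 32 samples.

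A Runx protein reads DNA through its Runt domain at a short TGTGGT-like site, and the β subunit, which does not touch DNA, strengthens that binding and shields the α subunit from degradation. Depending on the partners at a site, the complex turns genes up or down. Runx1 is best known from blood stem cells and is also a known denervation-induced gene of muscle fibres, Runx2 is the master factor of osteoblasts and hypertrophic cartilage, and Runx3 is known from cytotoxic T cells and proprioceptive sensory neurons.

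Each Runx gene can be transcribed from a distal or a proximal promoter. RefSeq (GRCm38.p6) windows of 300 bases, from 250 before to 50 after a start, were at hand for all 4 members. In the windows at the distal starts of the 3 Runx genes a script found 1 run of 18 letters shared by all 3, which holds the Runx site 2 times. The run is shown because it is the longest stretch these windows share and because the genes it belongs to are the ones followed below. Capitals mark the shared run, and each sequence is given 5′ to 3′ on the strand of its gene.

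Runx1, chr16:92826025-92826054 of GRCm38.p6, minus strand: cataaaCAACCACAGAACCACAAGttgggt

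Runx2, chr17:44814583-44814612 of GRCm38.p6, minus strand: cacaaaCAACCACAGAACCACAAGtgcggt

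Runx3, chr4:135120503-135120532 of GRCm38.p6, plus strand: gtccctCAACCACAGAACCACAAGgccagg

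The run began 27 bases into the Runx1 transcript and 22 bases into the Runx2 transcript, in an exon of each, and 136 bases before the Runx3 start. The only other window of the 32851 in the table to hold it was that of Gm16225, a window on the opposite strand that covers the same bases upstream of Runx3. TGTGGT, searched on both strands (its reverse reads ACCACA), was found 2 times in the distal Runx1 window, 3 times in the Runx2 window and 2 times in the distal Runx3 window, and not in the proximal Runx1 and Runx3 windows or in the Cbfb window. Of all windows of this length 16.8% held it at least once and 1.81% at least 2 times. These are matches of letters, and no binding was measured.

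FPKM corrects fragment numbers both for exon length and for sequencing depth, so levels of different genes can be set side by side on this scale. The length is that of all annotated exons of a gene merged, and a comparison between genes depends on it. The gene bodies lie at chr16:92601466-92826149 (Runx1), chr17:44495987-44814797 (Runx2), chr4:135120652-135177990 (Runx3) and chr8:105170674-105217989 (Cbfb) in GRCm38. The exons of Runx1 share 106 bases (0.881%) with the antisense gene Gm26626 and those of Runx2 share 519 bases (5.87%) with the antisense gene Runx2os1. Whether the counting used strand is not stated, so fragments in these bases cannot be assigned with certainty. Runx2os1 stayed at or below 0.153 FPKM and Gm26626 at or below 2.17 FPKM. Runx3 and Cbfb share no exon bases with another gene.

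Depth recovered from the FPKM values ranged from 14199882 to 17561602 fragments per sample. Mitochondrial genes took 14.5% to 18.2% of the fragments at 0 d and 6.70% to 17.1% later, and FPKM divides by the whole total. The median log2(FPKM + 1) difference from 0 d over the 11943 genes whose mean reached 1 FPKM was 0.12 at 1 d and 0.20 at 3 d, and from 5 d on it lay between 0.24 and 0.32. Median-ratio scaling, which centres the genes on each other, brought these medians to between -0.04 and 0.01. One 3 d sample (letter a) stood apart, with a median correlation across genes of 0.966 to its own group. The 3 d differences of the 4 genes and of their ratios are therefore also given without it.

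At 0 d Cbfb was by far the most abundant of the 4, and the α subunits were scarce. Cbfb stood at 45.8, 38.7, 49.6 and 58.7 FPKM in the 4 samples. Runx1 stood at 0.378, 0.401, 0.441 and 0.356 FPKM, Runx2 at 0.132, 0.0910, 0.119 and 0.157 FPKM, and Runx3 at 0.0649, 0.0402, 0.0262 and 0.0378 FPKM. The 4 genes did not overlap in level at 0 d. Behind these values were 68 to 81 fragments per sample for Runx1, 12 to 22 for Runx2 and only 2 to 5 for Runx3, so that Runx3 was at or near the floor of 3 fragments at 0 d.

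Runx1 rose at every time point after denervation. It stood at 2.82, 1.61, 1.71 and 1.88 FPKM at 1 d, at 9.16, 10.8, 14.1 and 15.6 FPKM at 3 d, and at 11.0, 14.2, 13.1 and 13.5 FPKM at 5 d. The lowest 1 d sample was already 3.65 times the highest 0 d sample. At 7 d the values were 17.7, 21.6, 16.5 and 17.3 FPKM, at 14 d 21.7, 17.9, 20.9 and 18.5 FPKM, and at 21 d 16.3, 18.8, 20.3 and 21.1 FPKM. At 28 d they were 27.4, 28.1, 20.2 and 20.4 FPKM, and no sample from 3 d on fell below 9.16 FPKM.

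The mean Runx1 level went from 0.394 ± 0.0364 FPKM at 0 d (SD, n = 4) to 2.01 ± 0.555 at 1 d, 12.4 ± 2.94 at 3 d and 24.0 ± 4.33 at 28 d. These are 5.09, 31.5 and 60.9 times the 0 d mean. A pseudocount of 1 shrinks the change of a gene this low at 0 d. On the log2(FPKM + 1) scale the difference from 0 d was 1.09 at 1 d, 3.24 at 3 d and 3.32 at 5 d, each with an SE of 0.14. It was 3.78, 3.89, 3.85 and 4.15 at 7, 14, 21 and 28 d. Adjusted p in limma was 2.47e-07 at 1 d and between 1.60e-19 and 1.93e-17 from 3 d on. With median-ratio scaling the differences were 1.06 at 1 d and 3.98 at 28 d, and without the 3 d sample that stood apart the 3 d difference was 3.36.

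After 1 d, only the step of Runx1 from 1 to 3 d passed the test between successive time points, with a difference of 2.15 (adjusted p in limma 4.90e-13), and 30.9% of all genes tested changed in that step. The step from 5 to 7 d was 0.47 (adjusted p 0.0729), and it passed only when the 3 d sample that stood apart was left out (adjusted p 0.0369). In the order of the means, the gap of 5.35 FPKM between 5 and 7 d was larger than the SD of either, as were the gaps from 0 to 1 d and from 1 to 3 d, whereas 3 and 5 d were neighbours that did not differ beyond their SD, as were 7 and 21 d, 21 and 14 d, and 14 and 28 d.

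Runx2 rose from 3 d on, to a lower level than Runx1, and its mean was highest at 7 d. Its values were 0.367, 0.177, 0.204 and 0.322 FPKM at 1 d, where every sample was above the highest 0 d sample but the difference of 0.17 did not pass the test (SE 0.12, adjusted p in limma 0.360). With a pseudocount of 0.1 the 1 d difference was 0.68 and passed (adjusted p in limma 0.0266). The values were 0.709, 1.46, 1.54 and 1.09 FPKM at 3 d and 1.62, 0.943, 0.942 and 1.79 FPKM at 5 d. At 7 d they were 1.58, 1.40, 0.937 and 1.92 FPKM. The groups from 3 to 7 d overlapped one another widely and none overlapped 0 d.

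From 14 d on the mean of Runx2 was lower again and still above that at 0 d. It stood at 0.921, 1.31, 0.990 and 1.17 FPKM at 14 d, at 0.728, 0.906, 0.772 and 0.761 FPKM at 21 d and at 0.694, 1.09, 1.01 and 0.975 FPKM at 28 d. The mean went from 0.125 ± 0.0275 FPKM at 0 d to 1.46 ± 0.408 at 7 d and 0.943 ± 0.173 at 28 d (SD, n = 4), which is 11.7 and 7.57 times the 0 d mean. The difference from 0 d on the log2(FPKM + 1) scale was 0.95, 1.03 and 1.11 at 3, 5 and 7 d and 0.90, 0.67 and 0.78 at 14, 21 and 28 d, with an SE of 0.12 and adjusted p in limma between 1.52e-08 and 5.72e-05. The step from 1 to 3 d passed the test (0.78, adjusted p 1.10e-05), and no later step did. Every sample at 14 d lay above every sample at 21 d, and that step was -0.23 (adjusted p 0.458). Without the 3 d sample that stood apart the 3 d difference from 0 d was 1.07.

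Runx3 stayed very low throughout. No sample exceeded 28 fragments or 0.329 FPKM. At 7 d it stood at 0.274, 0.114, 0.167 and 0.244 FPKM and at 14 d at 0.102, 0.196, 0.329 and 0.192 FPKM, and each of these values was above the highest 0 d sample. At these 2 time points the difference from 0 d passed the test, with 0.20 at 7 d (SE 0.05, adjusted p in limma 0.00198) and 0.21 at 14 d (SE 0.05, adjusted p 0.00162). Neither reached 1.5-fold on the log2(FPKM + 1) scale, where the pseudocount of 1 shrinks a change at such low levels. The mean FPKM was 4.73 times the 0 d mean at 7 d and 4.85 times at 14 d. Only 2 to 5 fragments per sample stood behind the 0 d mean.

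At the other time points the Runx3 difference did not pass as deposited. At 21 d every sample lay above the highest 0 d sample, and the difference of 0.11 (adjusted p in limma 0.0804) passed with a pseudocount of 0.1, in TPM and on recovered fragments (adjusted p 0.0331, 0.0486 and 0.0233). At 28 d its values were 0.119, 0.214, 0.0484 and 0.160 FPKM, with 1 sample inside the 0 d range, and the difference of 0.12 had an adjusted p in limma of 0.0560. It passed with a pseudocount of 0.1 or 0.5, in TPM and on recovered fragments, and also when 1 of 4 samples was left out, namely 28 d letter c (difference 0.16, adjusted p 0.0166), 7 d letter b (adjusted p 0.0482), 14 d letter a (adjusted p 0.0434) and 14 d letter c (adjusted p 0.0374). The 3 d sample that stood apart held a single Runx3 fragment (0.0130 FPKM), against 7 to 9 in the other 3 d samples, and the 3 d difference was 0.04 with it and 0.07 without it.

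Cbfb fell at 1 and 3 d and overlapped the 0 d range from 5 d on. It stood at 41.7, 39.6, 32.1 and 28.4 FPKM at 1 d, where 2 of the 4 samples lay within the 0 d range, and at 29.8, 29.8, 35.2 and 31.6 FPKM at 3 d, where all 4 samples were below the lowest 0 d sample. The 5 d values were 39.6, 40.6, 39.4 and 41.5 FPKM. The mean was 48.2 ± 8.33 FPKM at 0 d, 35.5 ± 6.21 at 1 d and 31.6 ± 2.54 at 3 d (SD, n = 4), which is 73.6% and 65.6% of the 0 d mean.

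The difference of Cbfb from 0 d was -0.43 at 1 d (SE 0.10, adjusted p in limma 0.00126) and -0.58 at 3 d (SE 0.10, adjusted p 2.08e-05). Without the 3 d sample that stood apart the 3 d value was -0.55. With median-ratio scaling the values were -0.64 at 1 d and -0.85 at 3 d. As deposited, neither fall reached 1.5-fold on the log2(FPKM + 1) scale.

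Cbfb then rose from 3 to 5 d by 0.34 (adjusted p in limma 0.0126), a step that did not pass with median-ratio scaling (0.22, adjusted p 0.205). From 7 d on the samples ran between 48.3 and 60.1 FPKM and overlapped the 0 d range. The direction against 0 d depended on the scaling there. At 7, 14, 21 and 28 d the differences were 0.13, 0.22, 0.09 and 0.15 as deposited, and with median-ratio scaling they were -0.26, -0.17, -0.22 and -0.22, none past the test. In TPM they were 0.32, 0.43, 0.23 and 0.33, and those at 7, 14 and 28 d passed (adjusted p in limma 0.0132, 0.00138 and 0.0130). At 5 d the deposited scale gave -0.24 (adjusted p 0.0554) and median-ratio scaling -0.63 (adjusted p 7.19e-05).

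**Figure D1:**
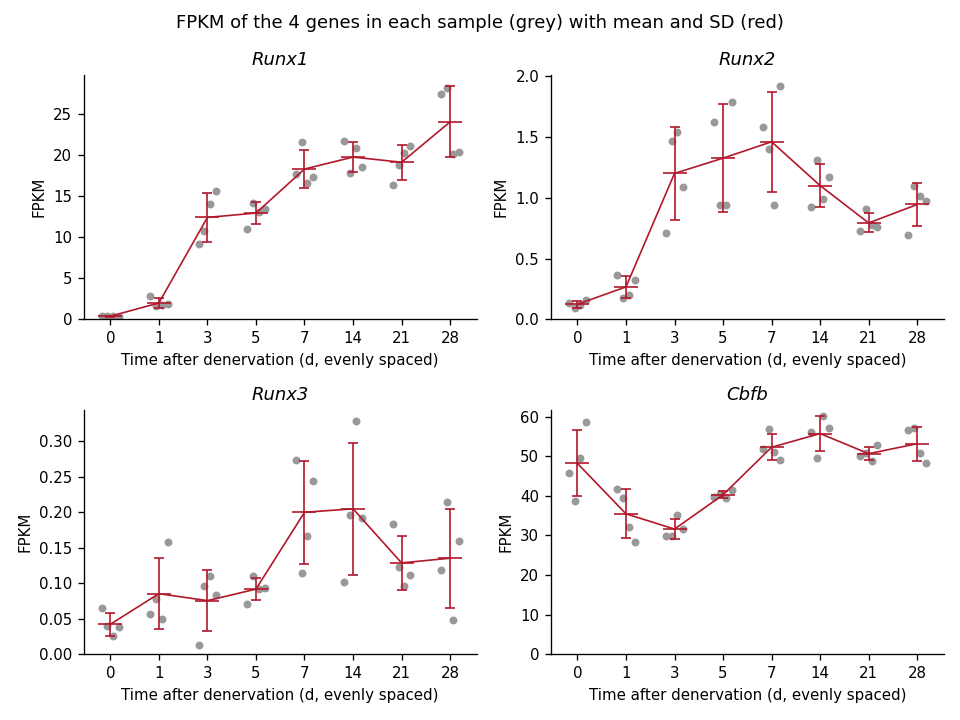
FPKM of Runx1, Runx2, Runx3 and Cbfb (vertical axes, linear and from 0, a scale for each gene) in each of the 4 samples at 8 time points (horizontal axes, days, evenly spaced). Grey points are samples and red marks are the mean and SD; Runx1 climbs from 0.394 to 24.0 FPKM, Runx2 peaks at 1.46 FPKM at 7 d, Runx3 stays below 0.33 FPKM, and Cbfb dips to 31.6 FPKM at 3 d.

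**Figure D2:**
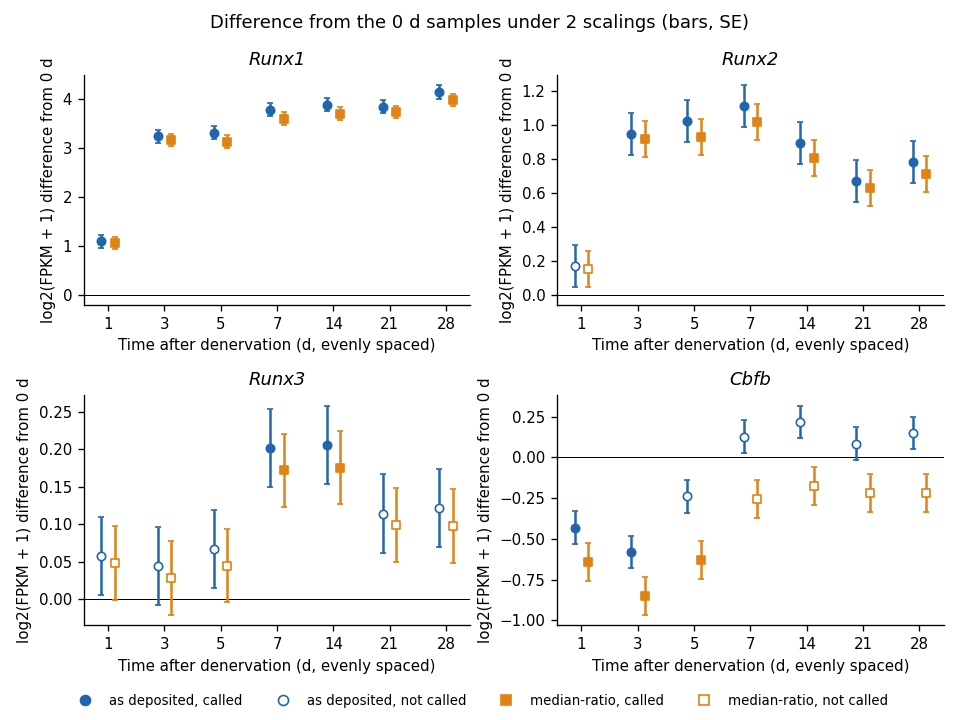
Difference from the 0 d group in log2(FPKM + 1) for the 4 genes at 7 time points, as deposited (blue circles) and with median-ratio scaling (orange squares); bars are SE and filled symbols passed the test at an adjusted p under 0.05. The 2 scalings lie close for Runx1, Runx2 and Runx3, while for Cbfb the orange values lie below the blue ones at every time point and below 0 from 7 d on.

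Against the table as a whole, changes were common, which sets what a single call is worth. At 1 d 20.4% of the 22071 genes tested were higher than at 0 d and 9.01% lower, and Runx1 was higher and Cbfb lower. At 3 d, with 29% higher and 14.3% lower, 2 members were higher and 1 lower. At 5 d the shares were 36.1% and 9.52%, at 7 d 37.1% and 10.1%, at 14 d 38% and 9.25%, at 21 d 31.7% and 10.1%, and at 28 d 37.8% and 9.85%. The members counted 2 higher at 5, 21 and 28 d and 3 higher at 7 and 14 d, with none lower.

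Of the genes called, 67.0% to 80.4% were higher as deposited and 42.2% to 50.8% with median-ratio scaling. All 4 members passed the F test over the 7 differences (adjusted p in limma 2.28e-20 for Runx1, 1.00e-08 for Runx2, 0.00725 for Runx3 and 7.99e-08 for Cbfb), as did 63.2% of all genes tested. With quantile normalization Runx3 did not pass it (adjusted p in limma 0.112). In the later steps 23.8% of genes changed from 3 to 5 d, 1.96% from 5 to 7 d, 2.54% from 7 to 14 d, 1.61% from 14 to 21 d and 0.476% from 21 to 28 d.

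The make-up of the α subunits shifted toward Runx1. Runx1 held 65.7%, 75.4%, 75.3% and 64.7% of the summed Runx FPKM in the 4 samples at 0 d, and 97.1%, 95.6%, 95.0% and 94.7% at 28 d. The mean share at 0, 1, 3 and 28 d was 70.3 ± 5.87%, 85.0 ± 3.57%, 90.7 ± 2.68% and 95.6 ± 1.07% (SD, n = 4). None of the 7 later groups overlapped 0 d, and each gave an exact permutation p of 0.0286 (two-sided, adjusted over 7 comparisons 0.0286), the smallest that 4 against 4 samples can give. The FPKM of Runx1 over that of Runx2 in the same sample rose from 3.31 ± 0.942 at 0 d to 10.8 ± 4.26 at 5 d and 26.5 ± 9.02 at 28 d, with the same exact permutation p at every time point. This second ratio was added after the data had been seen. Without the 3 d sample that stood apart, the log2 change from 0 to 3 d was 0.36 in place of 0.37 for the share and 1.63 in place of 1.72 for Runx1 over Runx2.

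Set against the β subunit, the α subunits remained the smaller quantity in FPKM. That scale divides by the merged exon length, 12025 bases for Runx1 and 3480 for Cbfb. In fragments the order at 28 d was the reverse, with 4009 to 5676 per sample for Runx1 and 2917 to 3333 for Cbfb. Summed Runx FPKM over Cbfb FPKM was 0.0126, 0.0138, 0.0118 and 0.00939 at 0 d and 0.0779, 0.0471, 0.0612 and 0.0831 at 1 d. At 3 d it was 0.332, 0.415, 0.447 and 0.530, and at 28 d 0.499, 0.516, 0.419 and 0.446. The mean at 3 d was 36.3 times and the mean at 28 d 39.5 times that at 0 d, and the log2 change to 3 d was 5.17 with the sample that stood apart and 5.29 without it. The exact permutation p was again 0.0286 for each of the 7 comparisons (adjusted 0.0286), and no sample of any group reached a ratio of 1. A ratio within a sample does not depend on the scaling between samples, but it does depend on the exon lengths used. It compares transcripts, not proteins.

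**Figure D3:**
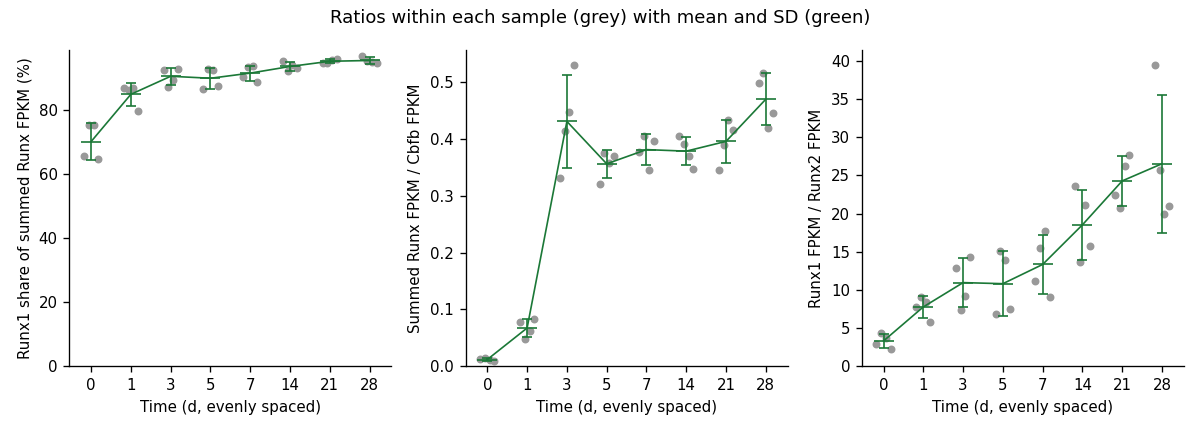
Runx1 share of the summed Runx FPKM in percent (left), summed Runx FPKM over Cbfb FPKM (middle) and Runx1 FPKM over Runx2 FPKM (right) in each sample at 8 time points (days, evenly spaced); grey points are samples, green marks the mean and SD, and vertical axes start at 0. All later samples lie above all 0 d samples in the 3 plots, and the share runs from a mean of 70.3% to 95.6%.

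Genes whose products work with the Runx complex moved in both directions. The list of 23 corepressors, coactivators and modifying enzymes, all tested, had 9 higher and 2 lower at 1 d, 13 and 5 at 3 d, 11 and 5 at 7 d and 9 and 3 at 28 d. With median-ratio scaling the counts were 5 and 4, 6 and 7, 6 and 11, and 3 and 10, so that the balance of the list depended on the scaling. The median difference of the list was 0.27 at 3 d and 0.16 at 28 d, beside 0.06 and 0.14 over all genes tested.

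The members of this list named next passed the test on both scalings. Prmt1, an arginine methyltransferase that modifies Runx1, rose from 23.5 ± 1.65 FPKM at 0 d to 78.0 ± 9.02 at 3 d, a difference of 1.68 (adjusted p in limma 9.39e-18). Wwtr1, the coactivator TAZ, rose by 0.66 at 3 d. Tle3, a Groucho-type corepressor, rose by 0.58 at 28 d. Aes, the short Groucho-related protein, fell by 1.05 at 3 d and by 0.83 at 28 d, from 149 to 71.5 and 83.2 FPKM. Tle2, another Groucho-type corepressor, fell by 0.55 at 3 d, and Wwp1, a ubiquitin ligase known to act on Runx2, fell by 1.10 at 28 d.

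AP-1 and ATF factors, which bind near Runx sites in many cell types, were mostly higher where they passed the test. Of 9 genes tested, 6, 7, 4 and 4 were higher at 1, 3, 7 and 28 d, and none was lower. Of all genes tested 20.4%, 29%, 37.1% and 37.8% were higher at these time points, so the counts at 7 and 28 d lay near that share. With median-ratio scaling Fosb, an AP-1 subunit, was lower at 5, 14 and 21 d (-0.38, -0.30 and -0.31, adjusted p in limma 0.0111, 0.0432 and 0.0418), which it was not as deposited. Atf3, a stress-induced ATF factor, rose by 2.48 at 3 d and 2.67 at 28 d, and Junb, an AP-1 subunit, by 2.37 and 1.74. The median difference over the 9 genes was 1.05 at 3 d and 0.37 at 28 d.

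The 8 haematopoietic factors that pair with Runx1 in blood cells moved in both directions. None was higher and 2 were lower at 1 d, with 1 and 3 at 3 d, 3 and 3 at 7 d and 2 and 2 at 28 d, and the median difference stayed between -0.15 and 0.04. Spi1, the myeloid master factor PU.1, rose by 1.17 at 3 d and 1.01 at 28 d. Lmo2, a bridging protein of blood and vessel factors, rose by 0.78 at 28 d, Erg and Ets1, ETS factors also found in endothelium, fell by 0.56 and 0.54 at 3 d, and Ets1 and Gata2 fell by 0.29 and 0.27 at 28 d. With median-ratio scaling 5 of the 8 were lower at 3 d and 4 at 28 d.

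Genes known to respond to loss of the nerve in muscle fibres were mostly higher. Of 16 tested, 8 were higher and 2 lower at 1 d, 12 and 3 at 3 d, 12 and 2 at 7 d and 11 and 2 at 28 d, and the median differences were 0.58, 2.65, 2.72 and 3.06. Myog, the myogenic factor myogenin, rose from 1.97 ± 0.464 to 215 ± 34.5 FPKM at 3 d. Gadd45a, a stress-response gene, rose by 5.39 at 3 d, and the acetylcholine receptor subunit genes Chrnd and Chrng rose by 6.05 and 5.80 at 28 d. Chrne, the adult receptor subunit, fell by 1.96 at 3 d, Dach2, a repressor of Myog, fell by 0.77 at 3 d and 0.88 at 28 d, and Trim63, the ubiquitin ligase MuRF1, fell by 0.73 at 28 d. The Runx1 difference of 4.15 at 28 d lay above the median of this list and below those of Chrnd and Chrng.

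Of the 14 genes of the bone and cartilage program tied to Runx2, 7 reached the filter, and Sp7 and Bglap, the defining osteoblast genes, did not exceed 0.0876 and 0.0947 FPKM in any sample. None of the 7 was called at 1 d, 1 was higher and 1 lower at 3 d, 2 and 1 at 7 d and 4 and 1 at 28 d, and without the 3 d sample that stood apart 3 were higher at 3 d. Spp1, the matrix protein osteopontin that macrophages also make, rose from 5.89 ± 1.67 to 67.9 ± 52.3 FPKM at 3 d. Col10a1, a cartilage collagen, rose by 0.71 at 28 d, from 0.0531 ± 0.0794 to 0.719 ± 0.133 FPKM. Alpl, alkaline phosphatase, fell by 0.91 at 3 d and by 1.04 at 28 d.

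**Figure D4:**
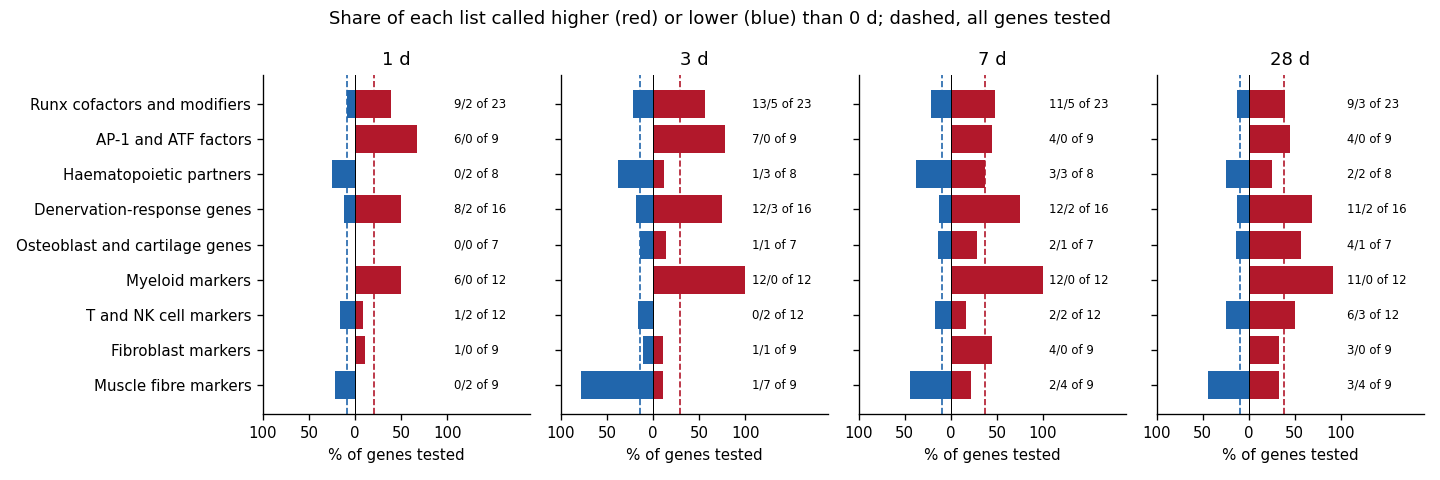
Percent of the genes tested in 9 lists that were higher (red, to the right) or lower (blue, to the left) than at 0 d at 1, 3, 7 and 28 d, with the counts higher/lower of tested beside each bar; dashed lines give the percent of all 22071 genes tested. Myeloid markers (12 of 12 higher at 3 d) and denervation-response genes (12 of 16) extend past the dashed line, and the haematopoietic list does not at 3 d in the higher direction.

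Cells other than fibres also changed in these whole muscles, and each Runx gene is expressed in some of them. Fewer cells of a type and less RNA per cell cannot be told apart in such samples. Myeloid markers, 12 of 12 tested, were higher for 6, 12, 12 and 11 genes at 1, 3, 7 and 28 d, and none was lower. Without the 3 d sample that stood apart, 10 were higher at 1 d. Their summed FPKM ran from 164 to 240 at 0 d, from 320 to 1131 at 3 d and from 549 to 642 at 28 d. The mean sum was 3.75 times the 0 d mean at 3 d and 2.88 times at 28 d, while Runx1 went from 31.5 to 60.9 times. Their part in the Runx1 and Runx2 levels was not tested.

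Within the 3 d group the 2 genes ran in different orders. The myeloid sums were 320, 1131, 1067 and 586 FPKM in samples a to d, the fibroblast sums 350, 739, 793 and 596 FPKM and the Schwann cell sums 12.8, 30.6, 32.0 and 14.7 FPKM. Runx2 was lowest in sample a and highest in sample c, in the same order as the fibroblast and Schwann cell sums. Runx1 was lowest in sample a as well, where the myeloid, fibroblast and Schwann cell sums were also lowest, and highest in sample d, whose myeloid sum was the second lowest. The summed denervation-response genes were highest in sample a (2197 FPKM). At 28 d the order of Runx2 matched neither the fibroblast nor the Schwann cell sums. Each group holds 4 samples, and these orders are given as a description.

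T and NK cell markers stand for the setting in which Runx3 is best known. Cd3e and Cd8a did not exceed 0.181 and 0.180 FPKM in any sample. Of 12 genes tested 1 was higher and 2 lower at 1 d, 0 and 2 at 3 d, 2 and 2 at 7 d and 6 and 3 at 28 d. Beside the last count, 37.8% of all genes tested were higher and 9.85% lower at 28 d. The summed FPKM ran from 7.27 to 8.21 at 0 d and from 10.1 to 11.7 at 1 d, where every sample lay above those at 0 d. It ran from 5.44 to 8.60 at 3 d, 8.06 to 13.4 at 5 d and 6.40 to 11.6 at 7 d. At 14, 21 and 28 d it ran from 6.90 to 10.2, 7.30 to 8.82 and 7.42 to 8.53, overlapping 0 d each time. Zbtb7b, at 4.31 to 10.3 FPKM, made up much of the sum. Whether these cells carried the Runx3 fragments was not tested.

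The other marker lists are given by their counts. Of all genes tested 20.4%, 29%, 37.1% and 37.8% were higher at 1, 3, 7 and 28 d, and 9.01%, 14.3%, 10.1% and 9.85% were lower. Neutrophil markers, 5 tested, were higher for 5, 4, 3 and 2 genes at 1, 3, 7 and 28 d. Fibroblast and fibro-adipogenic markers, 9 tested, had 1 higher and 0 lower at 1 d, 1 and 1 at 3 d, 4 and 0 at 7 d and 3 and 0 at 28 d, and without the 3 d sample that stood apart 5 were higher at 3 d. With median-ratio scaling the fibroblast counts were 1 and 2, 0 and 2, 3 and 3, and 1 and 2. Schwann cell markers, 6 tested, had 0 higher and 2 lower at 1 d, 1 and 3 at 3 d, 2 and 2 at 7 d and 2 and 3 at 28 d. Satellite cell markers, 4 tested, had 1 higher and 1 lower at 1 d, 1 and 0 at 3 d, and 2 and 0 at both 7 d and 28 d. With median-ratio scaling the satellite cell counts were 0 and 1, 1 and 2, 2 and 0, and 1 and 1.

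Endothelial markers, 5 tested, had 1 higher and 1 lower at 1 d and 3 lower with none higher at 3, 7 and 28 d. Tendon markers, 3 tested, had 1 lower at 1 d, 1 higher and 2 lower at 3 d and 7 d, and 1 higher at 28 d. Muscle fibre markers, 9 tested, had 2 lower at 1 d, 1 higher and 7 lower at 3 d, 2 and 4 at 7 d and 3 and 4 at 28 d, and their summed FPKM fell to 0.63 of the 0 d mean at 3 d. Of the retina markers 1 of 8 was tested, Opn1sw, which was higher at 7 d and 28 d as deposited and only at 28 d with median-ratio scaling. The summed FPKM of the list did not exceed 0.528.

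The genes whose levels ran most like each member were found among 10677 other protein-coding genes whose mean reached 1 FPKM, by Pearson's r of log2(FPKM + 1) over the 32 samples. The samples share 8 time points and, on the deposited scale used for r, a common rise in most genes, so r is a description. For Runx1 these were Ugcg (r = 0.993), a glucosylceramide synthase, Chrnb1 (r = 0.988), an acetylcholine receptor subunit, Ttc9 (r = 0.983), Atp13a3 (r = 0.982), a transporter of the P5 ATPase family, and Kcnn3 (r = 0.979), the potassium channel SK3. Ugcg went from 3.13 FPKM at 0 d to 36.5 at 28 d and Kcnn3 from 0.592 to 28.9 FPKM.

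For Runx2 they were Ngfr (r = 0.966), the low-affinity neurotrophin receptor that denervated Schwann cells are known to make, Tubb2b (r = 0.960), a β-tubulin, and Sox2 (r = 0.936), a factor of stem cells and of dedifferentiated Schwann cells. Ngfr went from 0.407 FPKM at 0 d to 16.7 at 7 d and 11.2 at 28 d, with a dip to 8.21 at 21 d where Runx2 also had its lowest mean after 1 d. For Runx3 they were Irf8 (r = 0.774), a factor of macrophages and dendritic cells, and the class I histocompatibility genes H2-T23 (r = 0.762) and H2-K1 (r = 0.752), with lower values than for the other members and with few Runx3 fragments behind them. For Cbfb they were Aamdc (r = 0.889), Zfand6 (r = 0.887), a zinc-finger protein, and Prkag3 (r = 0.878), the fast-muscle γ subunit of AMP-activated kinase, which fell from 39.1 FPKM at 0 d to 6.33 at 3 d and stood at 74.2 at 28 d.

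Among the members themselves, Runx1 and Runx2 had r = 0.82 over the 32 samples and 0.67 over the 28 samples after 0 d. Runx1 and Cbfb had r = 0.33 and 0.67, and Runx2 and Cbfb 0.12 and 0.24. The value for Runx1 and Cbfb thus turned on whether the 0 d samples were included. These had the lowest Runx1 levels and Cbfb between 38.7 and 58.7 FPKM.

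**Figure D5:**
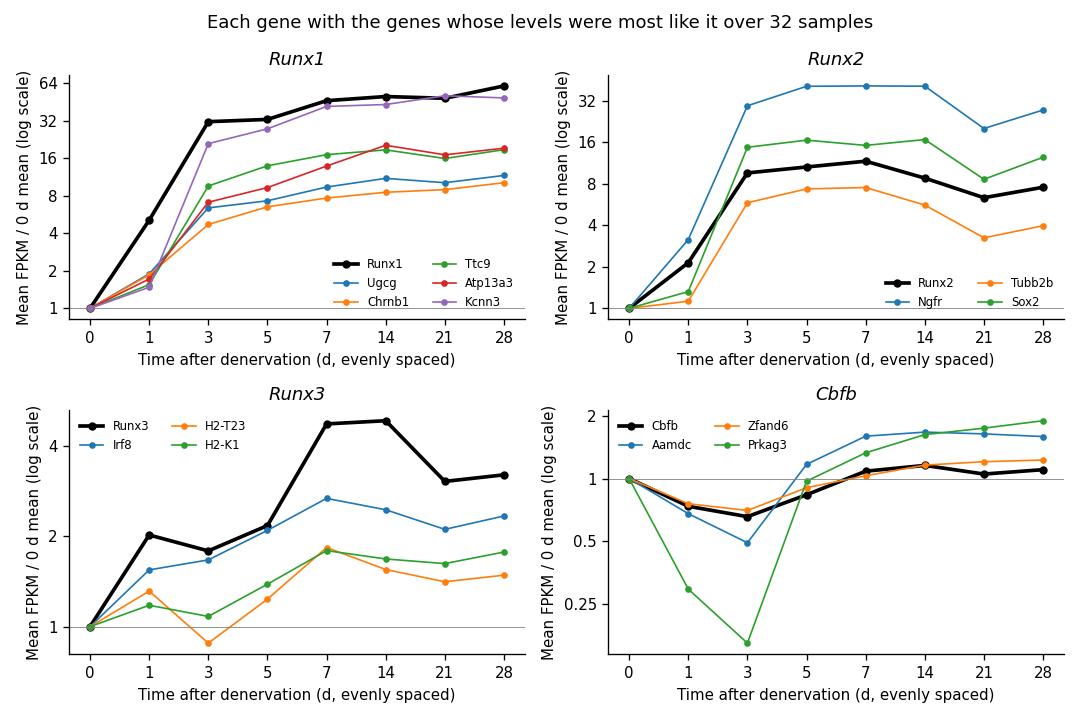
Mean FPKM at each of 8 time points (days, evenly spaced) divided by the 0 d mean, on a log scale, for each member (black, thick) and the genes most like it over 32 samples (coloured). Runx1 and Kcnn3 reach about the same multiple, Ngfr, Sox2 and Tubb2b share the dip of Runx2 at 21 d, and Cbfb and its 3 genes are lowest at 3 d.

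The Runx site was also counted in promoter windows of the lists. TGTGGT on either strand was found in 1 of 13 windows of the denervation-response genes, 1 of 24 of the Runx cofactors and modifiers, 1 of 8 of the AP-1 and ATF genes, 0 of 8 of the haematopoietic factors, 3 of 11 of the osteoblast and cartilage genes, 1 of 9 of the myeloid markers and 6 of 11 of the T and NK cell markers, beside 16.8% of all windows. Of the other marker lists, it was found in 2 of 5 windows of the satellite cell markers, 2 of 5 of the retina markers, 1 of 5 of the neutrophil markers, 1 of 5 of the fibroblast markers and 1 of 10 of the muscle fibre markers. It was in none of the 2 endothelial windows or of the single tendon and Schwann cell windows. Windows were at hand for 11 of the 16 denervation-response genes. A window of this length leaves out enhancers, and the counts are of letters only.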

How the data were processed

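Total RNA of GAS muscle was sequenced in 32 samples, 4 at each of 8 time points, and samples were grouped by the time in the labels. The authors deposited FPKM values for 33397 genes in 32 columns whose names give the time point but no animal, and the columns with prefix C were taken as the 0 d group. The submitters' processing notes name HISAT2 2.1.0, CASAVA, DESeq2 and the build GRCm38 without their roles; the counting tool, annotation and strandedness are not given in the sources used here. Multiplying FPKM by merged exon lengths of GENCODE mouse release 21 and by the recovered depth gave whole fragments (within 0.05, under 200 fragments) for 99.3% to 99.4% of values. Lengths matched 33356 genes.

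log2(FPKM + 1) was fitted with limma 3.58.1 in R 4.3.3 over all 32 samples, with a variance trend, for the 22071 genes that reached 0.1 FPKM in 4 or more samples, and Benjamini-Hochberg adjusted p under 0.05 counted as called. The step was tested on simulated data. Ratios within a sample were compared by two-sided exact permutation. Python 3.11.15 with scipy 1.17.1 and matplotlib 3.10.9 served for the rest. P-values measure the spread between samples, which the labels do not tie to animals; no 2 columns were identical, and replicates differed by more than counting noise.

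The 4 members and all gene lists were chosen with earlier results of these data known. The members are named throughout, and of each list up to 2 called genes per direction with the largest difference at 3 d and 28 d, with defining markers near 0 and the genes most like each member. Alternatives were other pseudocounts, filters, scalings, tests and samples left out. Proteins were not analysed here, and 1 marker gene is not reported here.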

Additional observations from a re-analysis of the deposited data

How the results depend on the processing

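All 7 Runx1 differences from 0 d kept their direction and passed in each of 44 alternatives, as did the Runx2 differences from 3 d on. No paired analysis was possible because the 0 d columns carry numbers and the later ones letters, and no source ties either to the replicate numbers of the labels. The 7 later groups share letters, but no source says that a letter marks a pair, and no replicate block was fitted among them. With a filter of an FPKM of at least 1 Runx3 was not tested. The causes of the changes below were not tested, except that a fold limit adds a second condition. With at least 1.5-fold on the log2(FPKM + 1) scale as well, 1950 genes were called at 1 d and 4254 at 3 d. The later counts were 4148 (5 d), 4308 (7 d), 4075 (14 d), 3466 (21 d) and 4049 (28 d), and the calls of Runx3 at 7 d (0.20) and 14 d (0.21), of Cbfb at 1 d (-0.43) and 3 d (-0.58) and of its step from 3 to 5 d (0.34) were lost.

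With a pseudocount of 0.1 Runx2 passed at 1 d (0.68) and Runx3 at 21 d (0.68) and 28 d (0.68), and with 0.5 Runx3 at 28 d (0.22). In TPM Runx3 passed at 21 d (0.29) and 28 d (0.31) and Cbfb at 7 d (0.32), 14 d (0.43) and 28 d (0.33). With limma-voom on recovered fragments Runx3 passed at 21 d (1.49) and 28 d (1.43), and Cbfb at 5 d (-0.24) and in the step from 5 to 7 d (0.38). With the filter of an FPKM of at least 1 Cbfb passed at 5 d (-0.24) and from 5 to 7 d (0.37), and with only the 2 groups compared from 5 to 7 d (0.37). Without mitochondrial genes in the total Cbfb passed at 5 d (-0.37) and turned negative at 7 d (-0.0089) and 21 d (-0.018).

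With median-ratio scaling Cbfb passed at 5 d (-0.63), turned negative from 7 d on (-0.26, then -0.17, -0.22 and -0.22 at 14, 21 and 28 d), and lost its step from 3 to 5 d (0.22). With quantile normalization Cbfb passed at 5 d (-0.52) and from 1 to 3 d (-0.36) and turned negative from 7 d on (-0.15, then -0.033, -0.095 and -0.040 at 14, 21 and 28 d), Runx3 turned negative at 5 d (-0.00087), and its F of 2.11 no longer passed (adjusted p in limma 0.112). Steps within their SE also turned sign, namely Runx1 from 3 to 5 d (-0.038 with median-ratio scaling) and from 14 to 21 d (0.037 with median-ratio scaling, 0.024 with quantile normalization), Runx2 from 3 to 5 d (-0.052 with quantile normalization), and Runx3 from 3 to 5 d (-0.020 with quantile normalization), from 7 to 14 d (-0.0082 with quantile normalization) and from 21 to 28 d (-0.0021 with median-ratio scaling, -0.014 with quantile normalization, -0.061 with limma-voom).

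Leaving out 1 sample at a time changed the sign or the call of the following. The Runx1 steps ran from -0.047 to 0.19 (3 to 5 d) and from -0.093 to 0.024 (14 to 21 d), and the step from 5 to 7 d ranged from 0.39 to 0.51. The Runx2 steps ran from -0.038 to 0.16 (3 to 5 d) and from -0.0020 to 0.19 (5 to 7 d). The Runx3 difference at 28 d ran from 0.088 to 0.16, and its steps from -0.029 to 0.018 (1 to 3 d), -0.0061 to 0.038 (3 to 5 d), -0.043 to 0.046 (7 to 14 d) and -0.026 to 0.045 (21 to 28 d). Cbfb ran from -0.34 to -0.14 at 5 d, where it passed without 0 d sample 2 or without 1 d letter a or d, from 0.12 to 0.32 at 14 d, where it passed without 0 d sample 4 or 14 d letter b, from -0.013 to 0.18 at 21 d, and from 0.053 to 0.25 at 28 d, where it passed without 0 d sample 4. The Cbfb step from 5 to 7 d ran from 0.33 to 0.39. The ratios within a sample moved by less than the spread between samples in all 168 such repeats, for which 3 against 4 samples cannot reach the threshold.

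Counts for lists moved by over 1.5 times in 28 of 120 cases with median-ratio scaling. These were the cofactors (5 higher and 4 lower at 1 d, 6 higher at 3 d, 6 and 11 at 7 d, 3 and 10 at 28 d), the haematopoietic factors (5 lower at 3 d, 1 higher at 7 d, 4 lower at 28 d), the fibroblast markers (2 lower at 1 d, 0 higher and 2 lower at 3 d, 3 lower at 7 d, 1 higher and 2 lower at 28 d), the tendon markers (2 lower at 1 d), the satellite cell markers (0 higher at 1 d, 2 lower at 3 d, 1 higher and 1 lower at 28 d), the endothelial markers (0 higher and 2 lower at 1 d), the Schwann cell markers (1 higher at 7 d and at 28 d), the muscle fibre markers (4 lower at 1 d, 1 higher at 7 d) and the retina markers (0 higher at 7 d). Without the 3 d sample that stood apart, a repeat chosen after the data had been seen, 8 counts moved: the haematopoietic factors (1 higher at 1 d, 2 at 3 d), the osteoblast genes (3 higher at 3 d), the myeloid markers (10 higher at 1 d) and the fibroblast markers (2 higher and 1 lower at 1 d, 5 higher and 0 lower at 3 d).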
